A study of Homo sapiens with 12 samples.

Results

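Antisense noncoding RNAs were followed through 5 times of insulin stimulation in HepG2, a human hepatocellular carcinoma line. They were selected on measured counts, as the genes whose symbol ends in -AS with or without a number and whose raw count was at least 10 in each of the 10 RNA-seq libraries. This gave 259 RNAs of the 999 with such a symbol, among 26364 genes in the count table. The rule used the counts, so the levels that follow are a description of the members, and an RNA that dropped under 10 counts in any library was left out by construction. At the edge of the rule, 11 members had a lowest count of exactly 10 and mean counts of 16.9 to 25.6, and 8 RNAs with a lowest count of 9 and mean counts of 13.7 to 18.5 fell just outside.

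Total RNA was sequenced at 0, 5, 10, 30 and 240 min after insulin, with 2 libraries at each time. The labels give HepG2 cells kept in EMEM medium and then given 3 nM insulin in EMEM with BSA, and their treatment text names 5 min for every RNA library, so the times here come from the sample titles. No library was left without insulin at a later time, so time in culture and insulin cannot be told apart. Per the study's methods the RNA-seq experiment was run a single time on samples that were biologically independent, so the p-values measure the spread between the libraries of 1 experiment. Insulin receptor (IR) ChIP-seq was done once in insulin-stimulated HepG2 cells, with an input library.

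Counts on named genes ranged from 18347109 to 45005769 per library, the highest being replicate 2 at 0 min. The 8 hepatocyte markers examined were detected in every library at 137 CPM (the count scaled to the library size) or more, with albumin at 13900 to 20300 CPM, whereas the leukocyte marker PTPRC had no count in any library. Of the 7 markers of fibroblasts, blood cells and endothelium, CD68 (36.3 to 45.3 CPM) and PDGFRB (8.52 to 13.7 CPM) were the highest, and the other 5 stayed at or under 3.00 CPM. The members together took 0.185 to 0.197% of the counts on genes, and the 5 most abundant held 33.4% of the members' counts.

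Antisense RNAs are transcribed from the strand opposite to another gene, or divergently from the same promoter region in the other direction. A symbol such as CEBPA-AS1 names the neighbouring gene before the hyphen. Divergent transcripts often share a CpG-rich promoter with a coding gene, and RNAs that overlap a gene can act on its transcription or on its messenger RNA, although for most of them no function is known. In liver cells insulin acts through its receptor on kinase cascades that alter transcription of metabolic and growth genes, and low-abundance noncoding RNAs are part of the measured transcriptome.

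The position of each RNA relative to the gene in its name was taken from the hg19 coordinates of the deposited transcript tables. The largest class was head to head, in which both genes lie on opposite strands with starts no more than 1 kb apart, with 130 of the 259 RNAs. In 81 of these the antisense RNA started upstream of the named gene, in 49 it started at or inside it, and the median distance between the starts was 206.5 bp. The end of the RNA reached into the named gene in 50, 27 lay wholly inside it, 26 only started inside it, 8 spanned it, 14 lay apart from it, and for 3 the named gene was not in the tables under that symbol. The body of 160 RNAs overlapped the named gene on the opposite strand, and 180 overlapped some gene on the opposite strand. One, HNRNPU-AS1, lay on the same strand as the gene in its name.

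**Figure D1:**
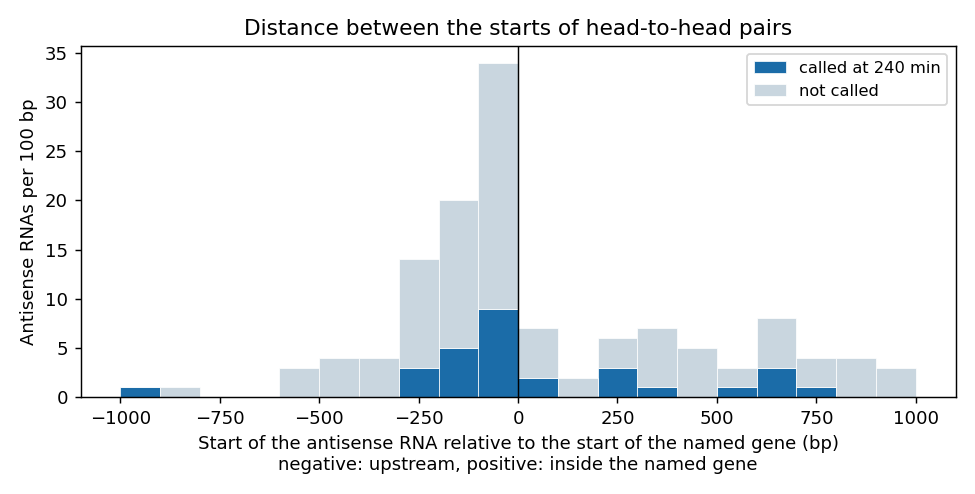
Distance in bp between the start of each head-to-head antisense RNA and the start of the named gene, counted in 100-bp steps for 130 RNAs, with negative values upstream of the named gene. RNAs called at 240 min (dark bars) and not called (light bars) are stacked, and the starts crowd just upstream of the named gene, where 81 of the 130 begin.

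The symbols were compared with RefSeq (names only, since its table is on another build). All 259 matched, 203 by their current symbol and 56 as an older symbol. RefSeq now names 38 of them as divergent transcripts (suffix -DT), among them CEBPA-AS1, ITPR1-AS1, OSER1-AS1 and USP46-AS1. It lists LRRC75A-AS1 as the small nucleolar RNA host gene SNHG29. It lists 7 members as protein coding, namely HNRNPU-AS1 (an older symbol of HNRNPU), SPTY2D1-AS1, TNRC6C-AS1, MMP24-AS1, NCBP2-AS2, FAM83H-AS1 and TOPORS-AS1, and 4 as transcribed pseudogenes. The larger part of the body of 16 members lay inside a coding gene of the same strand in GENCODE v44lift37, and reads of these cannot be assigned to an antisense RNA with certainty. The 7 listed as protein coding are among the 16. For each of the 7 a coding gene there bears the member's current RefSeq symbol, so in these annotations the member is that gene. Of the 16, the values of PSMA3-AS1 (inside ARMH4), TNRC6C-AS1 (now TMC6), OIP5-AS1 and HNRNPU-AS1 (now HNRNPU) are given below.

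The genomic stretch between both starts is shown for 5 head-to-head pairs whose antisense RNA was among the largest changes at 240 min. Each is printed along the strand of the antisense RNA, so that the RNA begins just after its last base and the named gene is transcribed in the other direction from just before its first. Capitals mark GC boxes (GGGCGG, or CCGCCC on the other strand) and CCAAT boxes (ATTGG on the other strand). The stretches are chr19:33793471-33793762 (plus strand) for CEBPA-AS1, chr4:53525503-53525572 (plus) for USP46-AS1, chr20:42839547-42839599 (plus) for OSER1-AS1, chr3:4534848-4535031 (minus) for ITPR1-AS1 and chr4:16228162-16228285 (plus) for TAPT1-AS1, all in hg19.
CEBPA-AS1: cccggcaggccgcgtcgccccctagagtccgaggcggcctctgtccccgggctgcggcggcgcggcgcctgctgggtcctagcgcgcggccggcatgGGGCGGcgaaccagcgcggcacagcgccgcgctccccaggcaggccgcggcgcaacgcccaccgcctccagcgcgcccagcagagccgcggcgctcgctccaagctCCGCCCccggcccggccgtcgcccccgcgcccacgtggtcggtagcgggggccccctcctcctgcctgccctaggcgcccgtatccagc
USP46-AS1: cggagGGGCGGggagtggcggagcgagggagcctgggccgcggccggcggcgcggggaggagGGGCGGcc
OSER1-AS1: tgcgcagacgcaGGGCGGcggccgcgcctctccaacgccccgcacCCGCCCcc
ITPR1-AS1: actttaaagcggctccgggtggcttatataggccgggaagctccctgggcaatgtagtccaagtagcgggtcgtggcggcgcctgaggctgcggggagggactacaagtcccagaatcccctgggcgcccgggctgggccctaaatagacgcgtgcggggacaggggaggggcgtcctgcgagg
TAPT1-AS1: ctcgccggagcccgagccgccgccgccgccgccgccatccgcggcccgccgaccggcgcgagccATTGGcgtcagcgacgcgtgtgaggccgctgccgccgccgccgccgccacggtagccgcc

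In the stretch of USP46-AS1 and in that of OSER1-AS1, 2 GC boxes were found, as in that of CEBPA-AS1. The stretch of TAPT1-AS1 held 1 CCAAT box, and that of ITPR1-AS1 held neither. The stretch of INTS6-AS1, also head to head and among the largest falls, is not printed. It has 205 bases, 71.7% of them G or C, and held 5 GC boxes, some of which share bases. G and C made up 81.2% of the bases for CEBPA-AS1, 87.1% for USP46-AS1, 83.0% for OSER1-AS1, 83.9% for TAPT1-AS1 and 66.3% for ITPR1-AS1. Over windows from 250 bases before to 50 after the start, the median GC content was 69.2% for the 130 head-to-head RNAs, 59.7% for the other 129, and 63.7% for the 12743 genes with at least 10 counts in every library. GGGCGG on either strand was found in 72.3% of the head-to-head windows, 50.4% of the other antisense windows and 66.8% of the windows of all those genes. The ETS-type motif CCGGAAG was found in 20.8%, 10.9% and 17.1% of these windows, respectively, the CCAAT box in 27.7%, 38.0% and 36.3%, and TATAAA in 5.38%, 6.98% and 6.47%. The forkhead (FOXO) motif TGTTTAC was found in 7 of the 259 windows (2.70%) and in 2.59% of the windows of all those genes. Matches of different motifs may share bases, and they are descriptions of letters in the window.

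Levels were compared between genes per length, as the TPM (transcript abundance scaled to length and library size) that the authors deposited. The median of the members' mean TPM over the 10 libraries was 3.79, from 0.111 to 687, and that of the named genes was 23.6. The 5 highest were LRRC75A-AS1 with 687 TPM, FGD5-AS1 with 103, OIP5-AS1 (the RNA also called cyrano) with 87.2, PSMA3-AS1 with 50.1 and DHRS4-AS1 with 41.3. Of the members, 44 reached 10 TPM and 25 stayed under 1 TPM. In at least 1 library, 4 members (SPTY2D1-AS1, ZNF790-AS1, ITGA9-AS1 and ZFPM2-AS1) were listed at 0 TPM although their counts there were at least 10.

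Over 247 pairs with a TPM for both, the antisense RNA stood at a median of 18.2% of the named gene. It was above the named gene in 45 pairs, between 10 and 100% in 108, between 1 and 10% in 79 and under 1% in 15. The lowest shares were found at 3 genes of secreted proteins that themselves stood at 1150 TPM or more. A2M-AS1 had 2.07 TPM against 4116 TPM for A2M, a plasma protease inhibitor, which is a share of 0.0502%. IGF2-AS had 0.690 TPM against 1150 TPM for IGF2, a growth factor (0.0600%), and APOA1-AS had 3.64 TPM against 2940 TPM for APOA1, the main protein of high-density lipoprotein (0.124%). The highest shares belonged to RNAs whose named gene was near 0, with 0.180 TPM for LRRC75A, 0.0232 TPM for EPB41L4A and 0.217 TPM for FGD5.

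**Figure D2:**
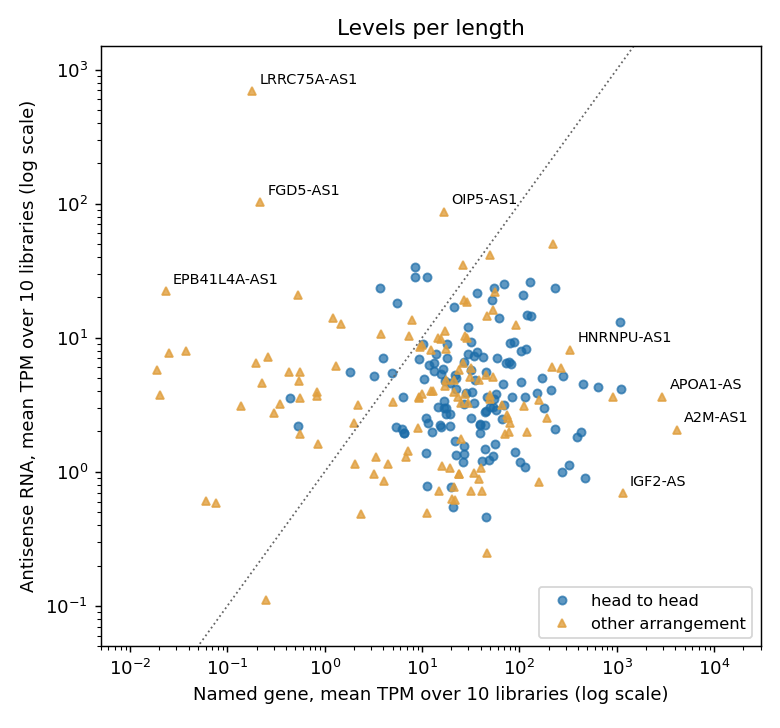
Mean TPM over 10 libraries of each antisense RNA (vertical, log scale) against that of the gene in its name (horizontal, log scale), for head-to-head pairs (circles) and other arrangements (triangles), with the dotted line at equal levels. Most points lie under the line, and LRRC75A-AS1, FGD5-AS1 and EPB41L4A-AS1 lie far above it.

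Early changes after insulin were few. Against 0 min, none of the 259 RNAs was called at 5 min by edgeR's quasi-likelihood test (Benjamini-Hochberg adjusted p under 0.05 over all 13852 genes tested), as none of all genes was (0.00%), and DESeq2 called none of the members either. At an unadjusted p under 0.05 there were 7 of the 259 members, beside 1976 of the 13852 genes tested, which had higher counts. By rising mean count (the 4 groups described below) there were 1 of 65, 0 of 65, 3 of 64 and 3 of 65 members. Genes with at least 10 counts in every library and mean counts in the same ranges gave 27 of 726, 28 of 835, 65 of 971 and 1713 of 9700. The last of these ranges is not matched for counts. At 10 min 1 member was called, lower, beside 0.137% of all genes, and at 30 min 1 member, lower, beside 0.332% of all genes. Both calls were HNRNPU-AS1. With RNA from whole cultures, fewer cells that express an RNA and less of it per cell cannot be told apart.

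HNRNPU-AS1 (chr1:245003940-245010243, minus strand) fell at 10 and 30 min and stood above its starting level at 240 min. Its levels were 15.7 and 19.1 CPM at 0 min, 19.3 and 21.5 CPM at 5 min, 10.5 and 8.73 CPM at 10 min, 11.9 and 9.52 CPM at 30 min, and 26.3 and 26.1 CPM at 240 min. Both libraries at 10 min and both at 30 min lay under every library of the other times, and both at 240 min lay above all others. The log2 fold change against 0 min was -0.87 ± 0.12 (SE, n = 2 libraries per time) at 10 min (adjusted p = 0.000744), -0.71 ± 0.12 at 30 min (adjusted p = 0.00656) and 0.57 ± 0.10 at 240 min (adjusted p = 0.000221). From 30 to 240 min it rose by 1.28 ± 0.11 on the log2 scale (adjusted p = 6.66e-08).

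HNRNPU, which encodes a nuclear RNA-binding and chromatin scaffold protein, lies on the same strand at chr1:245013602-245027827, upstream of it. It stayed between 852 and 883 CPM in the 8 libraries up to 30 min and reached 982 and 940 CPM at 240 min, with log2 fold changes of 0.01 at 10 min (adjusted p = 0.9998), -0.01 at 30 min (adjusted p = 0.986) and 0.15 at 240 min (adjusted p = 0.0135). The difference between HNRNPU-AS1 and HNRNPU was -0.88 ± 0.13 at 10 min and 0.41 ± 0.11 at 240 min on the log2 scale. COX20, which encodes an assembly factor of cytochrome c oxidase and overlaps HNRNPU-AS1 on the opposite strand (it was added after its position was seen), held 50.9 to 53.5 CPM at 0 min and 51.4 to 57.8 CPM at 10 min, and rose to 77.0 and 74.1 CPM at 240 min (log2 fold change 0.54 ± 0.06). RefSeq gives HNRNPU-AS1 as an older symbol of HNRNPU and GENCODE places its span inside HNRNPU, so in these annotations it is not an antisense RNA. Without replicate 2 at 0 min the adjusted p at 10 min was 0.0774 and at 30 min 0.138, without replicate 2 at 10 min it was 0.0594, and without replicate 2 at 30 min it was 0.118. The calls at 10 and 30 min were also lost in limma's fits on TPM (adjusted p = 0.111 to 0.253 and 0.288 to 0.439), those at 30 and 240 min with ERCC scaling (adjusted p = 0.107 and 0.134), and that of HNRNPU at 240 min without replicate 1 or 2 at 0 min (0.0519 and 0.0825) or replicate 1 at 240 min (0.111).

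**Figure D3:**
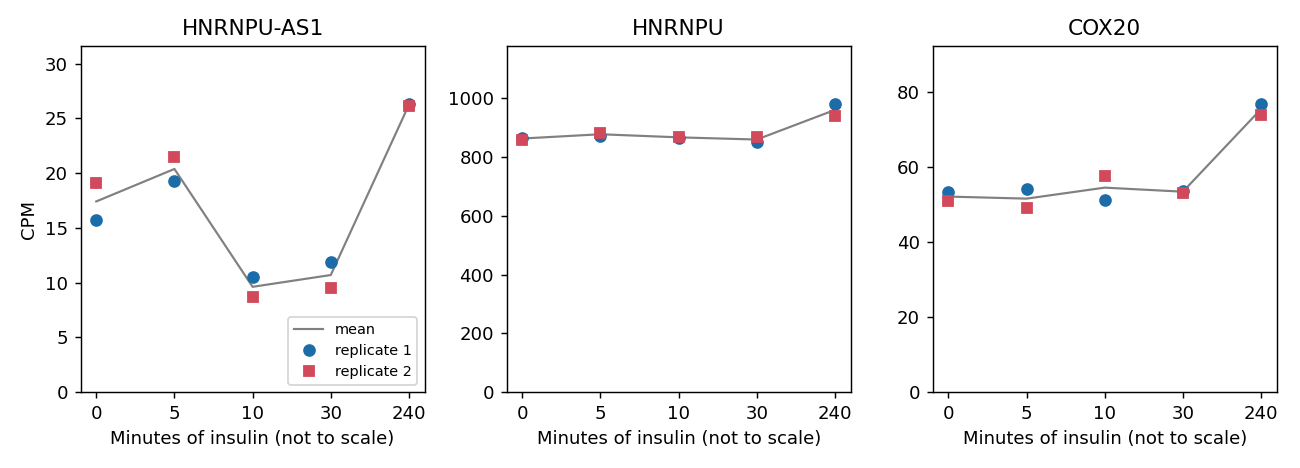
CPM of HNRNPU-AS1, of HNRNPU on the same strand and of COX20 on the opposite strand in each library by time of insulin, with circles for replicate 1, squares for replicate 2 and the line through the means of 2 libraries. HNRNPU-AS1 dropped to 8.73 to 10.5 CPM at 10 min and reached 26.1 to 26.3 CPM at 240 min, while HNRNPU stayed between 852 and 883 CPM until 30 min.

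At 240 min, 55 of the 259 RNAs (21.2%) were called against 0 min, 31 higher and 24 lower, beside 41.0% of all genes tested (20.6% higher and 20.4% lower). The median log2 fold change was 0.032 for the members and -0.003 for all genes tested. The members had low counts, with a median mean count of 71.4 against 598 for all genes tested. The members were split by mean count into 4 groups of nearly equal size. In the group with the lowest mean counts 12.3% were called, beside 12.1% of the 726 genes with at least 10 counts in every library and mean counts in the same range. The shares were 13.8% and 20.4% in the next group, 28.1% and 30.4% in the third, and 30.8% and 48.7% in the fourth, whose range holds 9700 genes. In the fourth the median mean count was 293 for the members and 966 for those genes, so its shares are not matched for counts. The median log2 fold changes of members and genes were 0.089 and 0.105 in the first group and 0.013 and 0.061 in the next. They were 0.005 and 0.042 in the third, and 0.032 and -0.014 in the fourth. Among other noncoding RNAs held to the same count rule, 32 of 108 LINC genes (long intergenic noncoding RNAs, 29.6%) were called, 18 higher and 14 lower, and 3 of 6 intronic or overlapping transcripts (-IT and -OT), all lower. The CPM of both libraries at 240 min lay outside the range of both at 0 min for 137 members (52.9%), beside 69.7% of all genes tested.

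Against 30 min, 55 RNAs were called at 240 min as well (30 higher and 25 lower), beside 38.2% of all genes tested. Of the 55 called against 0 min, 41 were also called against 30 min, each in the same direction. Scaling to the ERCC spike-in RNAs moved the median of all genes at 240 min by -0.12 on the log2 scale and that of the members to -0.09, and left 20 members called, 7 higher and 13 lower, so that 35.0% of the calls were higher against 56.4% with TMM scaling. Left out in turn, the 0 and 240 min libraries gave 34 to 48 members called at 240 min, with 34 both without replicate 2 at 0 min and without replicate 1 at 240 min.

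The largest rise was that of SLFNL1-AS1 (chr1:41480262-41509562), which spans SLFNL1, a schlafen-like gene that was itself not tested. It had 0.928 and 0.696 CPM at 0 min and 1.96 and 2.21 CPM at 240 min, and the log2 fold change was 1.41 ± 0.25 (adjusted p = 0.000185). PRR7-AS1, which starts inside PRR7, the gene of a membrane adaptor protein, and also overlaps GRK6, went from 0.557 and 0.561 CPM to 1.48 and 1.37 CPM (1.34 ± 0.29, adjusted p = 0.000992). In both RNAs the 2 libraries at 240 min lay above every library of the earlier times.

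USP46-AS1 (chr4:53525573-53527665) starts 71 bp from USP46, a deubiquitinase gene. It held 1.34 and 1.82 CPM at 0 min, between 1.51 and 1.99 CPM in the 6 libraries from 5 to 30 min, and 3.96 and 3.63 CPM at 240 min (1.21 ± 0.20, adjusted p = 8.32e-05). The rise was thus absent from the early libraries and present in both late ones. USP46 rose by 0.33 ± 0.06 on the log2 scale (adjusted p = 0.000113), from 48.2 and 49.4 CPM to 59.9 and 63.5 CPM.

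CEBPA-AS1 (chr19:33793763-33795963) starts 293 bp from CEBPA, the gene of a transcription factor of hepatocyte and adipocyte differentiation. It had 3.52 and 3.93 CPM at 0 min, 3.17 to 4.51 CPM from 5 to 30 min, and 7.27 and 6.47 CPM at 240 min (0.87 ± 0.14, adjusted p = 5.92e-05). CEBPA rose from 18.1 and 18.9 CPM to 41.9 and 38.8 CPM (1.12 ± 0.09, adjusted p = 1.31e-08), and the difference between both genes was -0.25 ± 0.17. Both genes at this start region were thus higher in both late libraries than in any earlier one.

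The other 6 of the 10 largest rises were RTCA-AS1 (1.06 ± 0.35), ZNF337-AS1 (1.06 ± 0.15), ARRDC3-AS1 (1.02 ± 0.30), SGMS1-AS1 (0.90 ± 0.18), KDM4A-AS1 (0.86 ± 0.31) and MBNL1-AS1 (0.83 ± 0.29). ZNF337-AS1 held 2.37 to 3.09 CPM in the 8 libraries up to 30 min and 5.59 and 5.68 CPM at 240 min. SGMS1-AS1, upstream of a sphingomyelin synthase gene, went from 2.55 and 2.51 CPM to 4.48 and 4.99 CPM. RTCA-AS1, KDM4A-AS1 and MBNL1-AS1 held 0.359 to 0.965 CPM at 0 min, and MBNL1-AS1 was 2.04 CPM in one library and 1.26 CPM in the other at 240 min.

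The largest fall was that of DLGAP1-AS1, which with DLGAP1-AS2 is transcribed within DLGAP1, a gene of a postsynaptic scaffold protein that was itself listed at 0 TPM in every library and was not tested. It (chr18:3594112-3597377) had 17 and 15.6 CPM at 0 min, 14.1 to 17.8 CPM from 5 to 30 min, and 6.39 and 5.10 CPM at 240 min (-1.48 ± 0.12, adjusted p = 1.33e-08). DLGAP1-AS2 (chr18:3603735-3610087), on the same strand, went from 6.03 and 6.69 CPM to 3.12 and 3.00 CPM (-1.07 ± 0.14, adjusted p = 4.94e-06). For both RNAs the late libraries lay well under all 8 earlier ones.

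ITPR1-AS1 (chr3:4532001-4534847) starts 185 bp from ITPR1, the gene of a calcium channel of the endoplasmic reticulum. It had 1.48 and 1.64 CPM at 0 min, 1.11 to 1.53 CPM from 5 to 30 min and 0.559 and 0.736 CPM at 240 min (-1.30 ± 0.29, adjusted p = 0.00126), whereas ITPR1 had a log2 fold change of -0.16 ± 0.08 (adjusted p = 0.0939). The difference between both genes was -1.14 ± 0.30. OSER1-AS1 (chr20:42839600-42854667), 54 bp from the gene of an oxidative stress-responsive protein, went from 4.87 and 5.34 CPM at 0 min to 2.72 and 2.58 CPM at 240 min (-0.96 ± 0.16, adjusted p = 7.69e-05), after 6.10 and 6.12 CPM at 30 min. It was thus lowest in both late libraries, and OSER1 fell with it by 0.34 ± 0.06 on the log2 scale (adjusted p = 0.000108).

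The other 6 of the 10 largest falls were INTS6-AS1 (-1.11 ± 0.36), OGFR-AS1 (-1.03 ± 0.29), SLCO4A1-AS1 (-0.89 ± 0.19), TM4SF1-AS1 (-0.86 ± 0.28), TAPT1-AS1 (-0.77 ± 0.20) and RAB11B-AS1 (-0.73 ± 0.19). INTS6-AS1, beside the gene of an Integrator complex subunit, was uneven at 30 min, with 2.51 CPM in one library and 1.02 CPM in the other. TM4SF1-AS1 starts 3 bp from TM4SF1, a gene of a cell-surface protein, which fell by 0.60 ± 0.06 on the log2 scale. TAPT1 fell by 0.30 ± 0.06 and SLCO4A1, an organic anion transporter gene, fell by 0.49 ± 0.10.

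Of these 20 RNAs, 10 stayed called under every alternative that tested them, namely SLFNL1-AS1, PRR7-AS1, USP46-AS1, SGMS1-AS1 and CEBPA-AS1 among the rises and DLGAP1-AS1, DLGAP1-AS2, ITPR1-AS1, OSER1-AS1 and SLCO4A1-AS1 among the falls. Another 8 lost the call when 1 library was left out, and the highest adjusted p of each is given here. Without replicate 2 at 0 min the adjusted p was 0.325 for RTCA-AS1, 0.127 for ARRDC3-AS1, 0.147 for INTS6-AS1, 0.200 for TM4SF1-AS1, 0.129 for TAPT1-AS1 and 0.0745 for RAB11B-AS1, and without replicate 1 at 240 min it was 0.208 for KDM4A-AS1 and 0.473 for MBNL1-AS1. All of these but TAPT1-AS1 and RAB11B-AS1 lost the call without other libraries too, among them both at 0 min for KDM4A-AS1 and MBNL1-AS1 and replicate 2 at 240 min for INTS6-AS1, TM4SF1-AS1 and KDM4A-AS1. ZNF337-AS1 lost it in limma's fits on TPM (adjusted p = 0.0584 to 0.0868) and OGFR-AS1 with DESeq2 (0.0672).

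**Figure D4:**
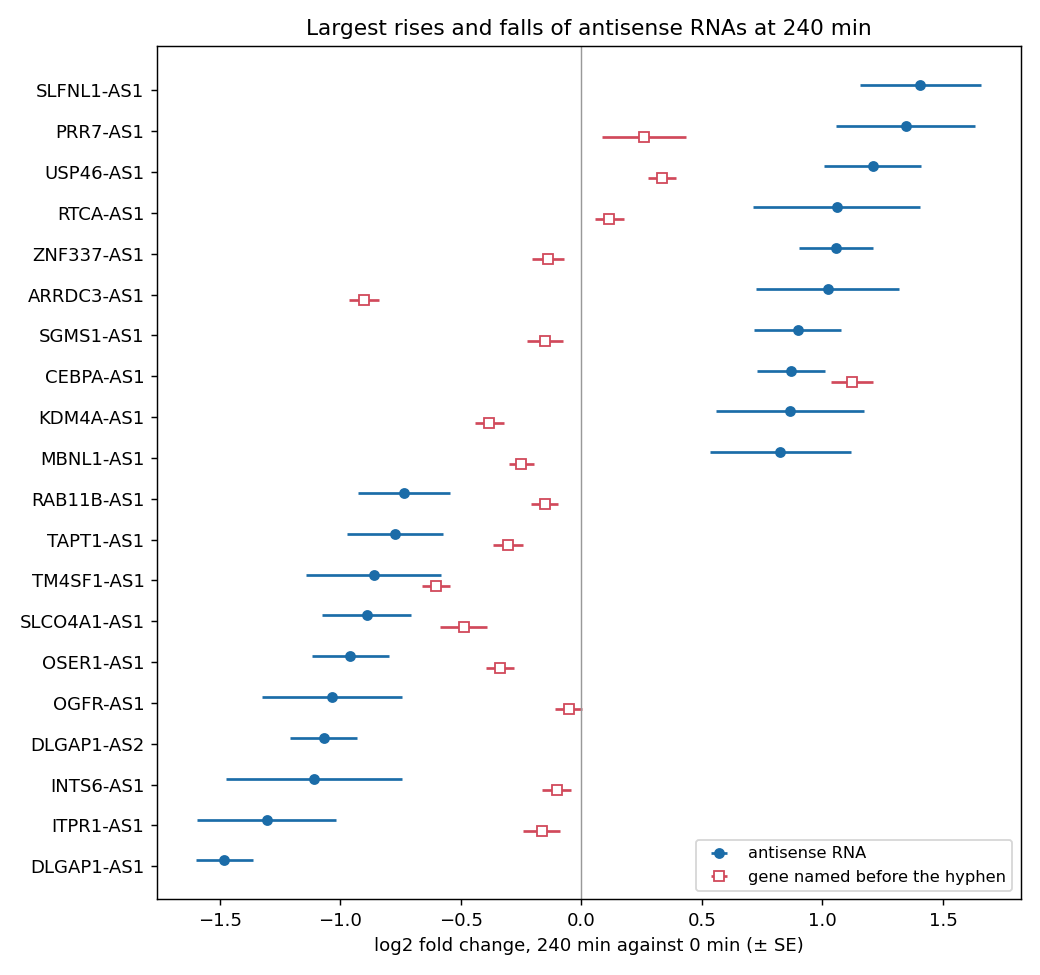
The log2 fold change at 240 min against 0 min with its SE (n = 2 libraries per time) of the 10 largest rises and 10 largest falls among called antisense RNAs (filled circles) and of the gene in their name where it was tested (open squares). CEBPA-AS1 and CEBPA rose together by 0.87 and 1.12, while ARRDC3-AS1 and ARRDC3 moved in opposite directions by 1.02 and -0.90.

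The gene before the hyphen was tested for 233 of the 259 RNAs. These pairs include HNRNPU-AS1 with HNRNPU, which lie on the same strand and are 1 gene in RefSeq. Both were called higher at 240 min, so they count among the pairs called in the same direction. In 21 pairs both genes were called in the same direction at 240 min, 11 higher and 10 lower, and in 11 pairs they were called in opposite directions. These counts depended on the setting, with 12 and 6 pairs by DESeq2, 3 and 0 with ERCC scaling, and 8 to 18 and 3 to 9 when a library of 0 or 240 min was left out, the lowest without replicate 1 at 240 min. WAC-AS1, NIFK-AS1 and MAGI2-AS3 were called opposite to their named gene in each of the 4 fits without a library. In the 3 limma fits on TPM, however, NIFK-AS1 lost its call in all (adjusted p = 0.0651 to 0.0921) and MAGI2-AS3 in 2 (0.0549 and 0.0567), while WAC-AS1 and WAC were called opposite in each. In 18 pairs the antisense RNA alone was called, in 96 the named gene alone, and in 87 neither. Of the 231 different named genes tested 55.0% were called, and of the members 21.2%, beside 41.0% of all genes tested. The median mean count was 1070 for the named genes and 598 for all genes tested. How many pairs of each kind these shares alone would give was not tested. Called in the same direction beside the pairs already given were CARD8-AS1 (-0.72) with CARD8, an inflammasome sensor gene (-0.81), SSTR5-AS1 (-0.66) with the somatostatin receptor gene SSTR5 (-1.24), and TMEM51-AS1 (0.82) with TMEM51 (0.35). Without replicate 1 at 240 min the adjusted p was 0.251 for CARD8-AS1, 0.0992 for SSTR5 and 0.0529 for TMEM51-AS1, and without replicate 2 at 0 min it was 0.0582 for CARD8-AS1 and 0.135 for SSTR5-AS1. The call of SSTR5-AS1 was also lost without replicate 1 at 0 min (adjusted p = 0.0678) and without replicate 2 at 240 min (0.206).

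The widest gap was that between ARRDC3-AS1 (chr5:90676164-90716532), which starts inside ARRDC3, and ARRDC3, the gene of an alpha-arrestin adaptor protein. ARRDC3-AS1 had 0.835 and 0.696 CPM at 0 min and 1.6 and 1.42 CPM at 240 min. ARRDC3 had 61.7 and 56.8 CPM at 0 min, 92.0 and 91.9 CPM at 10 min, 87.0 and 88.9 CPM at 30 min, and 30.9 and 32.4 CPM at 240 min. ARRDC3 therefore rose early (0.64 ± 0.06 at 10 min, adjusted p = 3.89e-06) and fell late (-0.90 ± 0.06, adjusted p = 3.06e-09), and at 10 min it was the only named gene that was called. The log2 fold change of ARRDC3-AS1 at 10 min was 0.51 and did not pass the test, and at 240 min the difference between both genes was 1.92 ± 0.30.

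NIFK-AS1 (chr2:122407230-122486136) reaches with its end into NIFK, the gene of a nucleolar RNA-binding protein. It had 10.7 and 9.31 CPM at 0 min and 6.71 and 6.68 CPM at 240 min (-0.56 ± 0.12, adjusted p = 0.00103), while NIFK went from 59.6 and 57.2 CPM to 86.7 and 87.4 CPM (0.58 ± 0.05, adjusted p = 7.42e-08). The groups did not overlap for either gene, and the difference was -1.14 ± 0.13. PSMA3-AS1 fell slightly (-0.28 ± 0.07) while PSMA3, a proteasome subunit gene, rose (0.18 ± 0.06). Reads of PSMA3-AS1 cannot be assigned to it with certainty, since it lies largely inside ARMH4 on the same strand. WAC-AS1 (0.48 ± 0.08) and MAGI2-AS3 (0.40 ± 0.08) rose while WAC (-0.35) and MAGI2 (-0.52) fell, and LPP-AS2 (0.80 ± 0.24), KDM4A-AS1 and MBNL1-AS1 rose while LPP (-0.37), the histone demethylase gene KDM4A (-0.38) and the splicing regulator gene MBNL1 (-0.25) fell. Without replicate 2 at 0 min the adjusted p was 0.0643 for PSMA3-AS1 and 0.299 for PSMA3, and without replicate 1 at 240 min it was 0.184 for LPP-AS2 and 0.149 for PSMA3. The calls of LPP-AS2 without replicate 1 at 0 min (0.0813) and of PSMA3-AS1 without replicate 2 at 240 min (0.0667) were lost as well. Among the other pairs in opposite directions were TNRC6C-AS1 (-0.38), which RefSeq lists as the coding gene TMC6, with TNRC6C (0.32), and PAXIP1-AS2 (-0.51) with PAXIP1 (0.30). With DESeq2 neither of these 2 pairs was called in both genes, and when a library of 0 or 240 min was left out the TNRC6C pair was lost in 3 of the 4 fits and the PAXIP1 pair in all 4.

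Among the other large differences, 3 belonged to RNAs given above whose named gene was not called. The difference was 1.195 ± 0.17 for ZNF337-AS1 (ZNF337 at -0.14, adjusted p = 0.0971), 1.09 ± 0.34 for PRR7-AS1 (PRR7 at 0.26, adjusted p = 0.246) and -1.01 ± 0.37 for INTS6-AS1 (INTS6 at -0.10, adjusted p = 0.196). For KDM4A-AS1 it was 1.25 ± 0.31 and for LPP-AS2 1.18 ± 0.25, with both genes called. In the remaining 4 the antisense RNA was not called. FGD5-AS1 stayed between 144 and 167 CPM in all libraries, and FGD5, a guanine nucleotide exchange factor gene with 0.29 to 1.0 CPM, gave a difference of -1.40 ± 0.37. SLC25A25-AS1 stayed between 5.68 and 6.84 CPM while SLC25A25, a mitochondrial carrier gene, rose from 14.8 and 15.3 CPM to 28.3 and 29.2 CPM (difference -1.02 ± 0.15). FRY-AS1 gave 1.35 ± 0.34 against FRY, with 1.52 CPM in one library and 0.736 CPM in the other at 240 min, and without replicate 1 at 240 min the difference was 0.69. ELFN1-AS1 gave -1.04 ± 0.52 against ELFN1, which was under 1 CPM in every library.

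The difference from the named gene exceeded 2 standard errors in 80 of the 233 pairs at 240 min, 52 positive and 28 negative, against 8, 8 and 12 pairs at 5, 10 and 30 min. Across the 233 pairs, HNRNPU-AS1 with HNRNPU among them, the Pearson correlation of both log2 fold changes at 240 min was 0.20. Across the 128 head-to-head pairs it was 0.32, across 42 pairs with the end of the RNA inside the gene 0.01, and across 23 nested pairs 0.35. For 22 pairs with only the start inside it was 0.10, and for 11 pairs lying apart -0.05. These describe genes measured in the same 4 libraries, and the pairs are not replicates. Of the 130 head-to-head RNAs 29 were called (22.3%), of the 50 with the end inside 11 (22.0%), of the 27 nested 5 (18.5%), of the 26 with the start inside 7 (26.9%), and of the 14 apart 1.

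**Figure D5:**
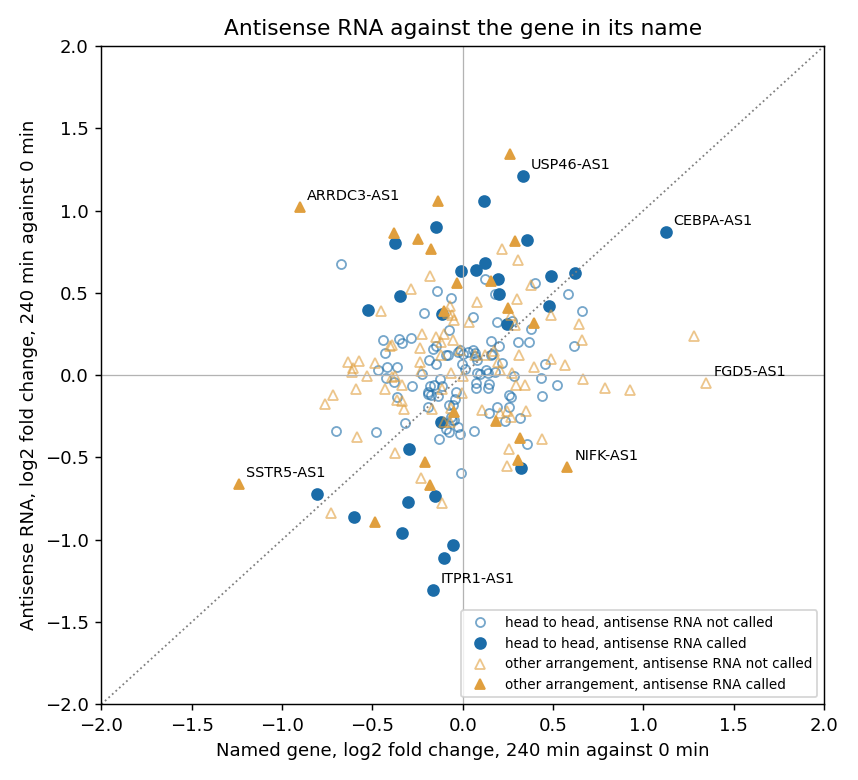
The log2 fold change at 240 min against 0 min of the antisense RNA (vertical) against that of the gene in its name (horizontal) for 233 pairs, with circles for head-to-head pairs, triangles for other arrangements, filled symbols for antisense RNAs that were called and the dotted line at equal change. CEBPA-AS1 lies near the line at the upper right, SSTR5-AS1 at the lower left, and ARRDC3-AS1 and NIFK-AS1 in the quadrants of opposite change.

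The IR ChIP-seq library gave 1971 peaks. A peak lay within 1 kb of the start of 40 of the 259 RNAs, which is 15.4% (95% Wilson interval 11.6 to 20.3%, counting error only), beside 13.0% (12.5 to 13.6%) of the 12743 genes with at least 10 counts in every library and 9.26% (5.11 to 16.2%) of the LINC genes. Among the head-to-head RNAs it was 23 of 130 (17.7%), and the starts of their named genes held a peak in the same number, so that in these pairs a peak cannot be assigned to one of the 2 genes. There was 1 IR library, so no replicate bears on any peak.

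The highest peak score among them was 4463 at FBXL19-AS1 (peak at chr16:30933577-30935125), rank 20 of the 1971 peaks. FBXL19-AS1 and FBXL19, a gene of a CpG-binding F-box protein, both fell at 240 min, by 0.45 ± 0.12 and 0.30 on the log2 scale, and the adjusted p of FBXL19 was 0.185 without replicate 1 at 240 min and 0.0700 without replicate 1 at 0 min. The next scores were 1074 at CAPN10-AS1, 530 at ITPR1-AS1, 418 at ZNF436-AS1 and 282 at RAB30-AS1, all head to head. Of these 4 RNAs only ITPR1-AS1 was called, and the log2 fold changes of the others were -0.04, -0.03 and 0.07. The peak at CEBPA-AS1 had a score of 81, that at LPP-AS2 49 and that at USP46-AS1 44. Of the 40 RNAs with a peak 9 were called at 240 min (22.5%), 5 higher and 4 lower, which is near the 21.2% of all 259 RNAs.

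Of the 740 RNAs with an antisense symbol outside the count rule, 294 had no count in any library and 82 were tested. Of these, 5 were called higher and 1 lower at 240 min, beside 20.6% higher and 20.4% lower of all genes tested. Among the 726 genes in the range of the lowest count group above, 69 were called higher and 19 lower. The filter before the test keeps a gene with enough counts in 2 libraries. An RNA outside the rule can therefore be tested because of its 240 min libraries, as with SRRM2-AS1 (8 and 8 counts at 0 min, 15 and 11 at 240 min). The 726 genes met the count rule in every library, so the directions of the calls among the 82 cannot be read as a result. BRE-AS1 had 5 and 32 counts at 0 min and 73 and 37 at 240 min (log2 fold change 2.16 ± 0.34), and SEPSECS-AS1 had 28 and 67 counts at 0 min and 7 and 9 at 240 min (-1.96 ± 0.35), the one called fall among the 82.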

How the data were processed

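Bulk RNA-seq libraries of HepG2 cells (5 times, 2 replicates each) and 1 IR ChIP-seq library with input were deposited. Raw gene counts were deposited by the authors, made per the study's methods from single-end reads with reverse strandedness by Trim Galore 0.6.4, STAR 2.6.1d (hg19) and featureCounts 1.6.4. TPM per gene were deposited as StringTie output, with hg19 coordinates. IR peaks with a peak score were deposited after BWA 0.7.17-r1188, MACS2 2.2.7.1 and HOMER annotation.

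The 92 ERCC rows carry no gene name and took 1.59 to 2.36% of the counts. They stayed out of library sizes and tests. Totals per library bound the precision, and p-values cover these libraries only. Counts were fitted with edgeR 4.0.16 (R 4.3.3; TMM, filterByExpr by time, quasi-likelihood test, all 10 libraries, no block), with Benjamini-Hochberg adjustment over 13852 genes and a threshold of 0.05. All 259 members passed the filter. Each later time was compared with 0 min, and 240 with 30 min. Differences between an antisense RNA and its named gene carry an SE from both fits and no test. Levels between genes use TPM. On simulated counts for 240 against 0 min, with 13734 genes tested, 71.7% of genes changed by 0.5 and 87.0% of those changed by 1 on the log2 scale were recovered. The 199 changed genes were drawn at random from genes of all counts, and 158 of the 170 calls fell on them. The members have lower counts, and far more genes were called in the data, so these rates do not carry over to the members.

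The members and lists were chosen with earlier results of these data known. Named were each RNA called by 30 min, the 10 largest rises and falls called at 240 min, the 5 highest TPM, the 6 largest and 6 smallest differences from the named gene, and the 3 highest and lowest TPM shares, with the named genes. RNAs named beside these (CARD8-AS1, SSTR5-AS1, TMEM51-AS1, WAC-AS1, MAGI2-AS3, those at peaks or outside the rule, and COX20) were chosen after their values were seen. 1 pair counted in the report is not reported here by name. Alternatives were DESeq2 1.42.0, limma 3.58.1 with pseudocounts of 0.1 and 1 added to TPM before log2 was taken, other filters and scalings, a replicate block and leaving out each library. Sequences were read from GRCh37 (the hg19 build).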

Additional observations from a re-analysis of the deposited data

Results flagged for a closer look

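The change at 240 min differed from the state at 30 min by a direct test of these times (edgeR's quasi-likelihood test, 240 against 30 min) for 55 of the 259 RNAs. This was 21.2%, beside 38.2% of all genes tested. HNRNPU-AS1 reversed its direction between these times, with a log2 fold change from 30 to 240 min of 1.28. Among the 20 RNAs with the largest changes against 0 min, values are given for those that were flagged. The log2 fold change from 30 to 240 min was 1.74 for SLFNL1-AS1, 1.51 for PRR7-AS1, 1.15 for USP46-AS1, 0.98 for ZNF337-AS1, 0.94 for KDM4A-AS1, 0.85 for CEBPA-AS1 and 0.76 for SGMS1-AS1. It was -1.44 for INTS6-AS1, -1.35 for DLGAP1-AS1, -1.20 for OSER1-AS1, -0.98 for ITPR1-AS1, -0.98 for OGFR-AS1, -0.94 for DLGAP1-AS2, -0.82 for TM4SF1-AS1, -0.68 for SLCO4A1-AS1 and -0.62 for RAB11B-AS1. RTCA-AS1, ARRDC3-AS1, MBNL1-AS1 and TAPT1-AS1, also among the 20, were not flagged. The 20 were picked on the same 240 min libraries, so the 2 comparisons are not independent. Groups of 2 libraries are too small for a test of single libraries that stand apart.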

How the results depend on the processing

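The count of members called at 5 min was 0 under every alternative run. At 10 min the single call went to 0 in the 3 limma fits on TPM, and it ranged from 0 to 1 when a library was left out. At 30 min it went to 0 with ERCC scaling and in the 3 limma fits on TPM, to 2 with no filter on low counts (SLC25A21-AS1 was added), and ranged from 0 to 1 when a library was left out. At 240 min against 0 min the 55 calls went to 35 with DESeq2 and 20 with ERCC scaling, and to 34 to 48 when a library was left out. Against 30 min the 55 calls went to 31 with DESeq2 and 14 with ERCC scaling (10 higher and 4 lower), and to 29 to 48 when a library was left out, the lowest without replicate 1 at 30 min. Among all genes, ERCC scaling called 7.65% at 240 min against 0 min. It moved the median of all genes by -0.33 at 10 min and -0.13 at 30 min on the log2 scale, and turned HNRNPU at 10 min to -0.32. LRRC75A-AS1 at 240 min turned from -0.03 to 0.14 in the 3 limma fits on TPM, without a call in either. The share of RNAs with an IR peak went from above that of all genes with at least 10 counts in every library (15.4 against 13.0%) to below it with scores above the median (5.02 against 7.19%), and over the gene body extended by 5 kb it was 20.5 against 16.5%. The cause was not tested for any of these.

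With the replicate number as a block, 60 members were called at 240 min, the 55 of the unblocked fit among them, 57 against 30 min, and 1 each at 10 and 30 min, and no call of the 20 largest changes was lost. The deviations of libraries with the same number correlated at -0.23 to 0.20 between times and not above 0.1 for every pair, so the numbers do not show a pairing. Low counts limited the precision, with a median SE of 0.20 on the log2 scale for the members at 240 min against 0.08 for all genes tested.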
